A study of Mus musculus with 30 samples.

Results

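The 30 quadriceps samples of a mouse diet study were parted by how much of the slow myosin heavy chain transcript Myh7 they held. Arrays with a Myh7 intensity above 100 formed the class rich in slow fibre RNA, 15 of 30, and arrays at 100 or below formed the other class, also 15 of 30; the members were chosen by this measured value alone. The study fed male C57BL/6J mice (spelled C56BL/6J in the sample labels) a low fat (LF) or a high fat (HF) diet and asked how obesity and insulin resistance bear on the muscle transcriptome. Each array held the biotin-labelled total RNA of the quadriceps of 1 mouse, hybridised to an Affymetrix array. All mice ate the low fat diet for a run-in of 3 weeks that began at an age of 9 weeks. Of 10 mice each, the LF day 0 group was killed after the run-in at 12 weeks of age, the LF day 56 group stayed on the low fat diet to an age of 20 weeks, and the HF day 56 group ate the high fat diet to the same age. The class above 100 held 4 LF day 0, 6 LF day 56 and 5 HF day 56 mice, and the class at or below 100 held 6, 4 and 5. No treatment other than diet, and no altered allele, is given in the labels.

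Mammalian muscle fibres are typed by the myosin heavy chain they express. Slow type I fibres use Myh7, and the fast types IIA, IIX and IIB use Myh2, Myh1 and Myh4. Slow fibres also carry their own troponins, myosin light chains and sarcoplasmic reticulum calcium pump, contract with low power, resist fatigue and draw on mitochondrial oxidation of fat and ketone bodies. The mouse quadriceps is made mostly of fast fibres, with slow and IIA fibres gathered in its deep portion. How much of that portion each sample held was not tested.

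Myh7 was the value that set the classes, so its difference between them is described here and not tested; only its level by diet group, which the choice of members did not use, was tested. The lowest, median and highest intensity were 211.9, 330.3 and 842.6 in the class above 100, and 3.2, 11.4 and 78.2 in the other. Just under the threshold lay arrays at 45.4, 70.0 and 78.2, and just over it arrays at 211.9, 214.4 and 227.9, so no array fell between 78.2 and 211.9. Each group had arrays on both sides of the threshold. In LF day 0 mice Myh7 ranged from 214.4 to 598.1 above the threshold and from 5.7 to 32.8 below it. In LF day 56 mice the ranges were 211.9 to 842.6 and 3.2 to 45.4, and in HF day 56 mice 241.2 to 395.8 and 4.9 to 78.2. No difference in class between the 3 groups was detected (two-sided Fisher's exact test, p = 0.897). The mean log2 Myh7 was 1.14 higher in LF day 56 than in LF day 0 mice (permutation test of 100000 resamples, p = 0.355, adjusted over 3 pairs 0.674) and differed by -0.28 between HF day 56 and LF day 56 mice (p = 0.815, adjusted 0.815), and neither passed the test.

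**Figure D1:**
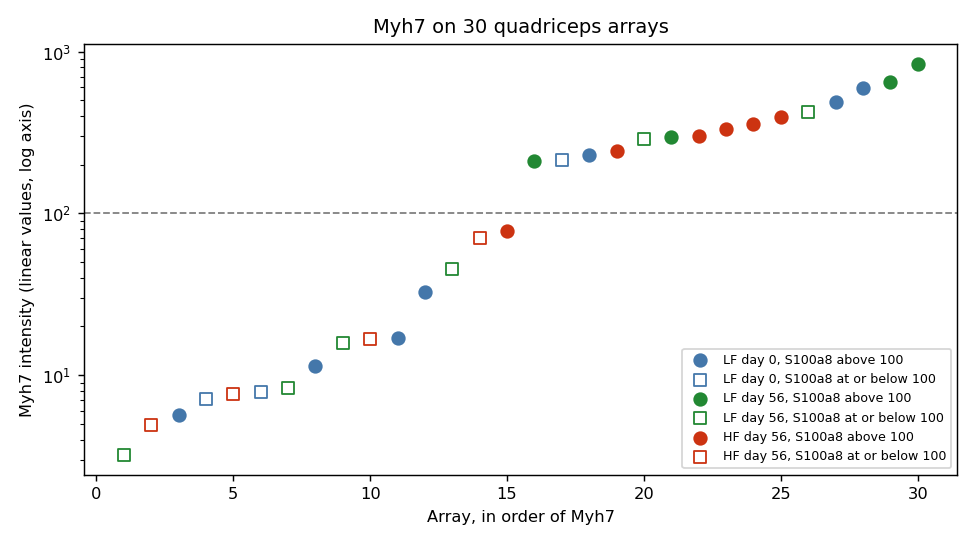
Myh7 intensity on a log axis for all 30 arrays in ascending order, coloured by group, with the threshold of 100 as a dashed line; filled circles have an S100a8 intensity above 100 and open squares do not. The 15 arrays above the threshold run from 211.9 to 842.6, those below from 3.2 to 78.2, and all 3 groups occur on both sides.

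The arrays at or below 100 were poor in slow fibre transcripts, and not free of them. On those 15 arrays, an intensity of 20 was exceeded by Tnnt1 on 8, Tnnc1 on 8, Tnni1 on 3, Myl3 on 14, and Myl2 and Atp2a2 on all 15. Myh7 itself was under 10 on 7 of them. On these 7 arrays Tnni1 lay between 4.9 and 10.6, Tnnt1 between 7.3 and 21.5, and Tnnc1 between 10.9 and 15.7, while Myl2 still ranged from 26.1 to 133.9 and Myl3 from 18.6 to 635.3. On the other 8 arrays Tnni1 (7 to 34.7) and Tnnt1 (13.4 to 90.5) overlapped with these ranges and reached higher. So did Atp2a2, at 222.8 to 579.2 against 180 to 291.2 on the 7. Tnnc1, at 23.4 to 93.7, did not overlap. Fast fibre transcripts were abundant on every array, with the fast troponin T Tnnt3 between 21777 and 24667.7 on all 30.

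Slow fibre sarcomere genes set the classes apart. Of 16474 entries tested with limma, with diet group as a block and Myh7 left out, 22 were higher in the class above 100 at an adjusted p below 0.05, which is 0.134% of all entries. None was lower at that threshold in limma, against 591 lower and 751 higher at an unadjusted p below 0.05. Without LF day 56 replicate 2, 14 genes passed. The difference reached 1.5-fold for 10 of the 22 genes and 2-fold for 8. Over all entries the median log2 difference was -0.00. The class was set from Myh7 on these same arrays, so the test asks only which other transcripts go with Myh7. In whole muscle, more slow fibres in the sample and more slow transcript per fibre cannot be told apart.

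Tnnt1 and Tnni1, of the slow troponin complex, had the largest log2 differences of the genes that passed. Tnnt1 (NCBI gene 21955), the slow troponin T that ties the complex to tropomyosin, had a lowest, median and highest intensity of 124.3, 306.4 and 632.1 in the class above 100 and of 7.3, 21.5 and 90.5 in the other. The classes did not overlap, and the log2 difference was 3.58 ± 0.33 (SE, n = 15 a class), or 12.0-fold, with an adjusted p of 3.76e-08 in limma. Tnni1 (NCBI gene 21952), the inhibitory slow troponin I, ran from 47.4 through a median of 117.5 to 236.5, against 4.9, 10.6 and 34.7. Every array above the threshold again exceeded every array below it, with a log2 difference of 3.33 ± 0.27 (10.1-fold, limma adjusted p = 3.45e-09). Tnnc1 (NCBI gene 21924), the calcium-binding troponin C of slow muscle and heart, ran from 129.6 through 204.4 to 384.4, against 10.9, 23.4 and 93.7. It differed by 2.93 ± 0.27 on the log2 scale, or 7.62-fold (limma adjusted p = 3.76e-08), and did not overlap either. The fast counterparts gave log2 differences close to 0, with -0.03 ± 0.03 for Tnnt3, -0.00 ± 0.03 for Tnni2 and -0.01 ± 0.03 for Tnnc2, none of which passed the test.

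The slow myosin light chains were the other large group. Myl2 (NCBI gene 17906), the slow and ventricular regulatory light chain, had a lowest, median and highest intensity of 579.7, 791.6 and 1408 above the threshold and of 26.1, 118.9 and 424.1 below it. The classes did not overlap and the log2 difference was 2.96 ± 0.36 (7.78-fold, limma adjusted p = 9.16e-06). Myl3 (NCBI gene 17897), the slow essential light chain, was high and narrowly spread above the threshold, at 1496, 2719 and 3472. Below it Myl3 spread from 18.6 through 606.8 to 2095.5, so the classes overlapped and the SE was larger, with a difference of 3.13 ± 0.53 (8.78-fold, limma adjusted p = 0.00352). Its SD between arrays was 0.29 on the log2 scale above the threshold and 2.12 below. In all, 5 entries had classes that did not overlap (0.0304% of entries): Tnnt1, Tnni1, Tnnc1, Myl2 and the calcium pump Atp2a2.

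**Figure D2:**
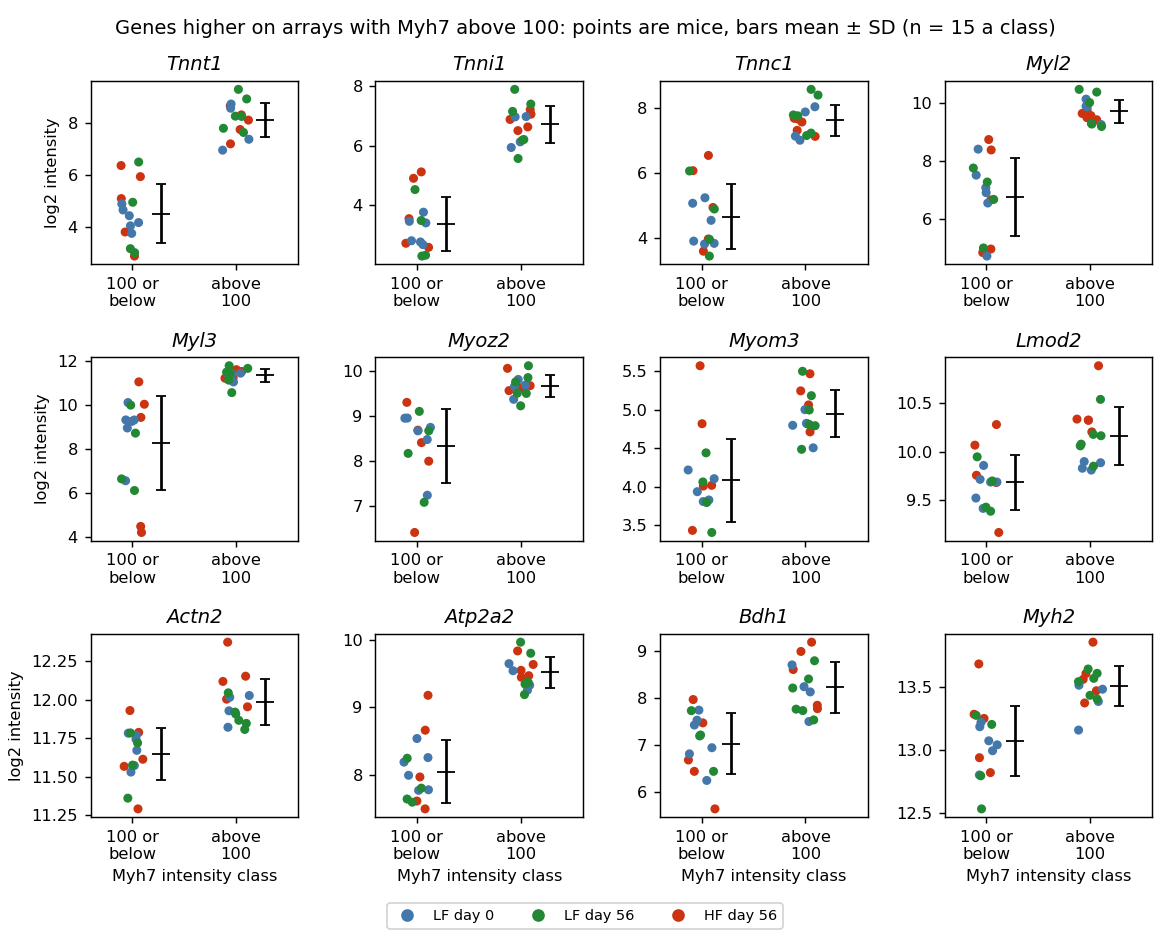
Log2 intensity of 12 genes by Myh7 class; each point is 1 mouse coloured by group, and bars give the class mean with its SD (n = 15 a class), each panel on its own axis. Tnnt1, Tnni1, Tnnc1, Myl2 and Atp2a2 separate fully, while Myl3, Myoz2 and Myh2 overlap between the classes.

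The proximal promoters of members from the light chain, troponin and Z-disc groups are shown because these genes moved with Myh7 and hold the textbook muscle motifs. Each is the 250 bases before the first listed start in RefSeq (GRCm38.p6), read along the gene's strand, with capitals marking matches on either strand. Myl3 (chr9:110763428-110763677, plus strand) holds the MCAT element CATTCC, which TEAD factors bind, with first bases at 177 and 149 before the start. Tnnc1 (chr14:31208062-31208311, plus strand) holds it at 58. Myoz2 (chr3:123034988-123035237, minus strand) holds a match to the MEF2 motif at 33 and the E-box CAGCTG, bound by MyoD family factors, at 12. No match overlaps another.
Myl3: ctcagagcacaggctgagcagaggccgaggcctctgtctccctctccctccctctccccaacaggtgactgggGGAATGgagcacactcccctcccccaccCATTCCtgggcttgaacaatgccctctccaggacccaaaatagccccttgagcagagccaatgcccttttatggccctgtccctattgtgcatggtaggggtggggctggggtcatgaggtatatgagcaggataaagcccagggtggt
Tnnc1: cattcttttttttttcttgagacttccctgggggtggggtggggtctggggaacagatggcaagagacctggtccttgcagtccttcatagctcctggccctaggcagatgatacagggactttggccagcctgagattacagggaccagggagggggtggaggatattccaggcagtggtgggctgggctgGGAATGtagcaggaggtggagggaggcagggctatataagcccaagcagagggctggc
Myoz2: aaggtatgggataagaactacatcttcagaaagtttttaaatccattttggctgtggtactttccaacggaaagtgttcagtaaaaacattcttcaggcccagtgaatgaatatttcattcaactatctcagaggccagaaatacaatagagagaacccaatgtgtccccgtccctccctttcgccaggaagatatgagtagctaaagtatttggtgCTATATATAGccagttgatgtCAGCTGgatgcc

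Of the 22 genes, 19 had a promoter window (all but Atp2a2, Nnt and Lpl). The MCAT letters stood in 3 of the 19 (15.8%), against 12.6% of all 32851 windows of this length, and the E-box in 2 (10.5%), against 13.0% of windows. The NFAT core GGAAAA, the letters bound downstream of calcineurin, stood in 3 (15.8%), against 20.4%. Letters that match the MEF2 motif stood in 3 (15.8%), against 1.69% of windows. They began 33 bases before the start in Myoz2, 35 in Myom3 and 22 in Esrrg. Only the first listed window of each of the 19 genes was counted, while the 32851 windows come from 27025 genes, some with several. The shares were not tested. The first listed windows of Tnnt1 and Myl2 held none of the 4 motifs, and that of Tnni1 held an E-box at 68. A match describes letters in this window and shows no binding.

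Beyond the troponins and light chains, the slow contractile list held Z-disc, M-band and thin filament genes. Of its 15 members besides Myh7, 13 were measured, 9 were higher, none was lower, and the median log2 difference over the 13 was 1.22. Myoz2, calsarcin-1 of the slow and cardiac Z-disc, ran from 599.4 through 808.8 to 1113.8 above the threshold and from 84.5 through 407.1 to 632.3 below it. The ranges overlapped slightly and the log2 difference was 1.37 ± 0.22 (2.58-fold, limma adjusted p = 0.00161). Myom3, an M-band myomesin, ran from 22.4 through 28.3 to 45.2, against 10.6, 16.1 and 47.5, a difference of 0.85 ± 0.15 (limma adjusted p = 0.00527). Smaller differences passed for Lmod2, a leiomodin that builds thin filaments, at 0.46 (limma adjusted p = 0.0293), and for Actn2, the alpha-actinin of all fibre types, at 0.35 (limma adjusted p = 0.00278). In each of these genes all 15 arrays above the threshold exceeded the mean of the others.

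Of the slow contractile list, 4 measured members did not pass. Csrp3, the muscle LIM protein, ran from 196.3 to 1734.5 above the threshold and from 83.8 to 743.5 below it, and its difference of 1.22 ± 0.30 had a limma adjusted p of 0.147. Mybpc1, the slow myosin-binding protein C, differed by 0.06 ± 0.16, with medians of 2852 and 2854. Smpx, the small muscle protein, differed by -0.03, and Myh7b was near the lowest intensities in both classes, with medians of 4.7 and 4.6.

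Among genes of the calcium handling lists only the slow pump passed in the class fit. Atp2a2 (NCBI gene 11938), the SERCA2 pump that refills the reticulum of slow fibres and heart, ran from 583.4 through 708.7 to 1000.8 above the threshold and from 180 through 250 to 579.2 below it. The gap between the classes was narrow and the log2 difference was 1.48 ± 0.13 (2.80-fold, limma adjusted p = 1.64e-08). Of the slow calcium handling list, 5 of 6 members were measured, 1 was higher and the median difference was 0.08. Casq2, the slow and cardiac calsequestrin, differed by 0.59 ± 0.13 without passing (limma adjusted p = 0.0785), with medians of 160.7 and 92.4. Sln and Pln, the small peptides that restrain the pump, had low intensities, with medians of 8.8 and 8.6 for Sln and of 5.5 and 5.2 for Pln. With group as a block, the log2 difference was -0.36 for Sln (limma adjusted p = 0.757) and 0.08 for Pln (limma adjusted p = 0.771). Srl (sarcalumenin) differed by -0.04.

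No fast fibre gene was called lower where Myh7 was high, and neither was any other of the 16474 entries. Myh2, the IIA heavy chain, was higher with Myh7, at 9156, 11722 and 14855 (lowest, median and highest) against 5934.5, 8631 and 13176, a log2 difference of 0.43 ± 0.08 (limma adjusted p = 0.00902). Myh1, the IIX chain, differed by 0.00 ± 0.04, with medians of 11006 and 10794. Myh4, the IIB chain, was -0.21 ± 0.10 without passing (limma adjusted p = 0.603), with medians of 12072 and 13405. Of the fast contractile list 13 of 15 members were measured, none passed in either direction, 10 had a negative difference, and the median was -0.01. At an unadjusted p below 0.05 Myh4 alone of the 13 passed, and its p was 0.0475. Of the fast calcium handling list 6 of 7 were measured and none passed, with Atp2a1, the fast SERCA1 pump, at 0.00 ± 0.03, Pvalb, parvalbumin, at 0.01 ± 0.03, and the lowest value, -0.15 ± 0.06, in Mrln, myoregulin.

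**Figure D3:**
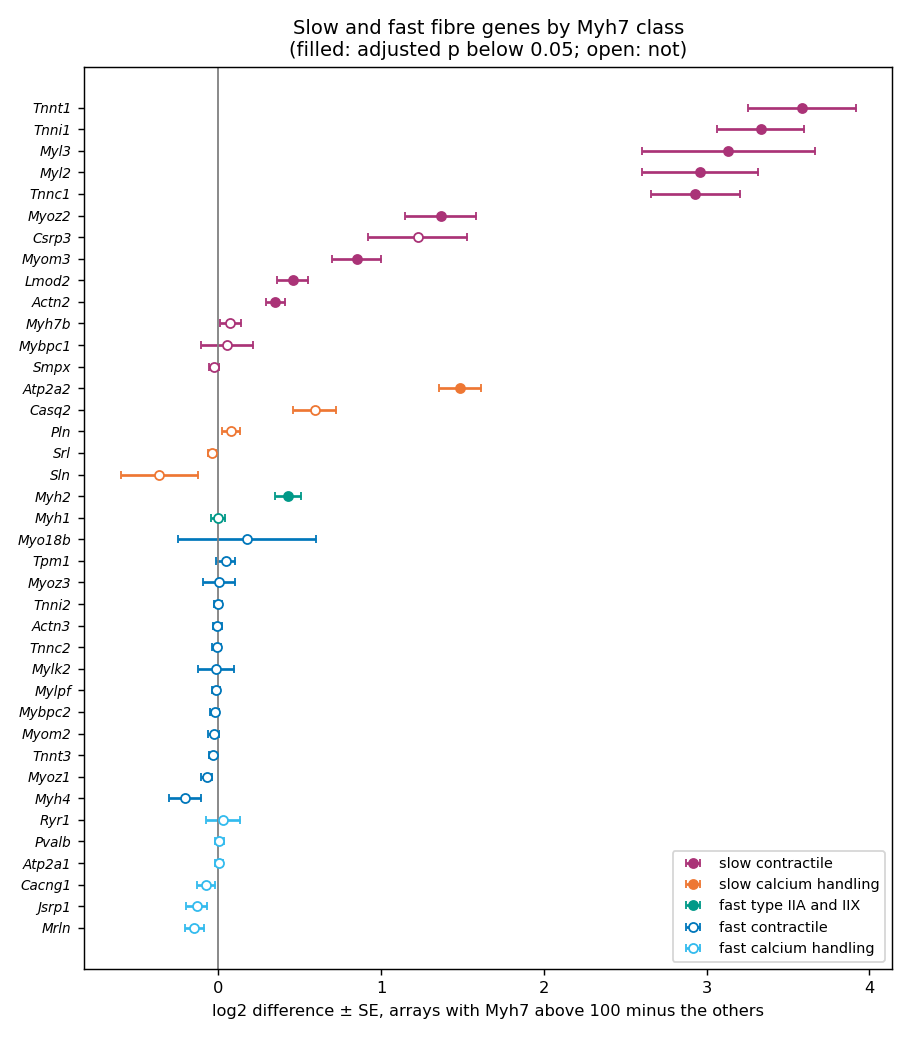
Log2 difference with its SE between the Myh7 classes (above 100 minus the others, n = 15 a class) for every measured member of 5 fibre lists; filled points passed an adjusted p of 0.05 in limma. Slow contractile genes reach 3.58 (Tnnt1), Atp2a2 lies at 1.48 and Myh2 at 0.43, and the fast genes lie between -0.21 (Myh4) and 0.18 (Myo18b).

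Metabolic genes outside the fibre lists were among those that went with Myh7. Bdh1, the mitochondrial 3-hydroxybutyrate dehydrogenase of ketone body use, ran from 181.6 through 297.5 to 584.1 above the threshold, against 50.2, 146.9 and 251.0. Its log2 difference of 1.20 ± 0.21 (2.30-fold, limma adjusted p = 0.00559) ranked next to Myoz2. Ldhb, the heart-type lactate dehydrogenase subunit, had medians of 1359 and 910.4 and a difference of 0.48 ± 0.09 (limma adjusted p = 0.00559), and was the only gene of 19 measured in the glycolysis and glycogen list that passed. Idh2, the mitochondrial NADP-linked isocitrate dehydrogenase, differed by 0.49 ± 0.10 (limma adjusted p = 0.0287) and was the only gene of 15 in the tricarboxylic acid cycle list. Lpl, lipoprotein lipase, which frees fatty acids from circulating lipoproteins, differed by 0.27 ± 0.05 (limma adjusted p = 0.0164) and was the only gene of 23 in the fatty acid use list.

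No other gene of the oxidative lists passed. Over all entries 0.134% passed, so lists of this size would hold few or none at that share. The median log2 difference over all entries was -0.00. In the fatty acid use list 22 of 23 differences were positive, with a median of 0.13 and a largest value of 0.36 ± 0.09 in Plin5, the lipid droplet coat protein of oxidative tissue (limma adjusted p = 0.119). In the oxidative phosphorylation list none of 27 measured genes passed, 25 differences were positive, and all lay between -0.02 (Cox5a) and 0.10 (Sdhb). Mb, myoglobin, differed by 0.14 ± 0.04 (limma adjusted p = 0.237), and none of the 18 oxygen store and capillary genes passed.

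Further genes that passed came from several roles. Pdlim1, a PDZ and LIM protein that binds alpha-actinin, had medians of 317.3 and 202.0 and a log2 difference of 0.63 ± 0.12 (limma adjusted p = 0.0164). Smtnl1, smoothelin-like 1, a kinase-regulated muscle protein, had medians of 520.6 and 394.2 and a difference of 0.49 ± 0.08 (limma adjusted p = 0.00229). Fxyd6, a small regulator of the sodium pump, differed by 0.52 ± 0.11 (limma adjusted p = 0.0477). Esrrg, the nuclear receptor ERR gamma of oxidative muscle, had medians of 74.4 and 57.3 and a difference of 0.44 ± 0.09 (limma adjusted p = 0.0171). It was the only gene of 25 in the slow signalling and transcription list that passed, where the median was 0.01 and Ankrd2, a stretch-responsive ankyrin repeat protein, stood at 0.86 ± 0.24 (limma adjusted p = 0.245).

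Chosen after their values were seen, Nnt, Plin3 and Ttc9 complete the 22. Nnt, the mitochondrial transhydrogenase, which C57BL/6J mice are known to carry with an internal deletion, differed by 0.32 (limma adjusted p = 0.0174). Which exons the probes of Nnt lie in was not analysed here. Plin3, a lipid droplet coat protein, differed by 0.28 and Ttc9 by 0.30 (both limma adjusted p = 0.0477), the latter with medians of 6.4 and 5.2, near the lowest intensities of the arrays. The fast signalling and transcription list holds Eya, Sox and Tbx factors linked to fast fibre genes. None of its 12 measured genes passed, against 0.134% of all entries. All 12 differences were negative, the median was -0.06 and the lowest was Tbx15 at -0.19 (limma adjusted p = 0.411).

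Arrays with marrow cell transcripts were more frequent in the class above 100. S100a8, a marker of neutrophils and their precursors, exceeded an intensity of 100 on 12 of 15 arrays above the Myh7 threshold and on 5 of 15 below it (two-sided Fisher's exact test, p = 0.0253). Its intensity ran from 5.1 through 841.2 to 4031.3 in the first class and from 5.7 through 7.8 to 3809 in the other, a log2 difference of 3.78 ± 1.12 (limma adjusted p = 0.262). By group the S100a8 difference was 0.78 in LF day 0, 4.31 in LF day 56 and 6.14 in HF day 56 mice. All 13 measured genes of 15 in the neutrophil and marrow list had positive differences, with a median of 1.99. None of them passed, against 0.134% of all entries. Their summed intensity had a lowest, median and highest value of 62.8, 2370 and 14062 above the threshold and of 58.9, 66.9 and 10690 below it. No marker was listed at 0. The 4 measured of 13 red cell genes had a median difference of 1.20, and their sum ranged from 24.2 to 231.2 and from 21 to 219.9.

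The slow fibre differences were therefore also taken beside S100a8. With log2 S100a8 as a covariate 5 genes passed: Tnnt1 at 3.37, Tnni1 at 3.06, Tnnc1 at 2.65, Myl2 at 2.60 and Atp2a2 at 1.28. Without the 17 arrays with S100a8 above 100, 3 arrays stood against 10 and the differences were 3.67, 3.41, 3.18, 3.46 and 1.52 for these genes, but none passed in limma (588 entries at an unadjusted p below 0.05, and an adjusted p of 0.123 for Atp2a2 and 0.184 for Tnni1). Within those 17 arrays, 12 against 5, the differences were 3.15, 2.81, 2.34, 1.87 and 0.98, and Tnnt1 and Tnni1 passed, both with a limma adjusted p of 0.00788. Neither of these 2 fits compared the classes in every group. Without the 17 arrays, no HF day 56 array was left above the Myh7 threshold, and LF day 0 had only replicate 8 there. Among the 17, every LF day 56 array lay above the threshold, and HF day 56 had only replicate 8 below it. The difference of Myl3 was 2.60 with the covariate, 3.45 without the arrays and 1.37 within them. Myh2 stood at 0.36, 0.62 and 0.11 and Smtnl1 at 0.40, 0.57 and 0.14 in the same order.

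**Figure D4:**
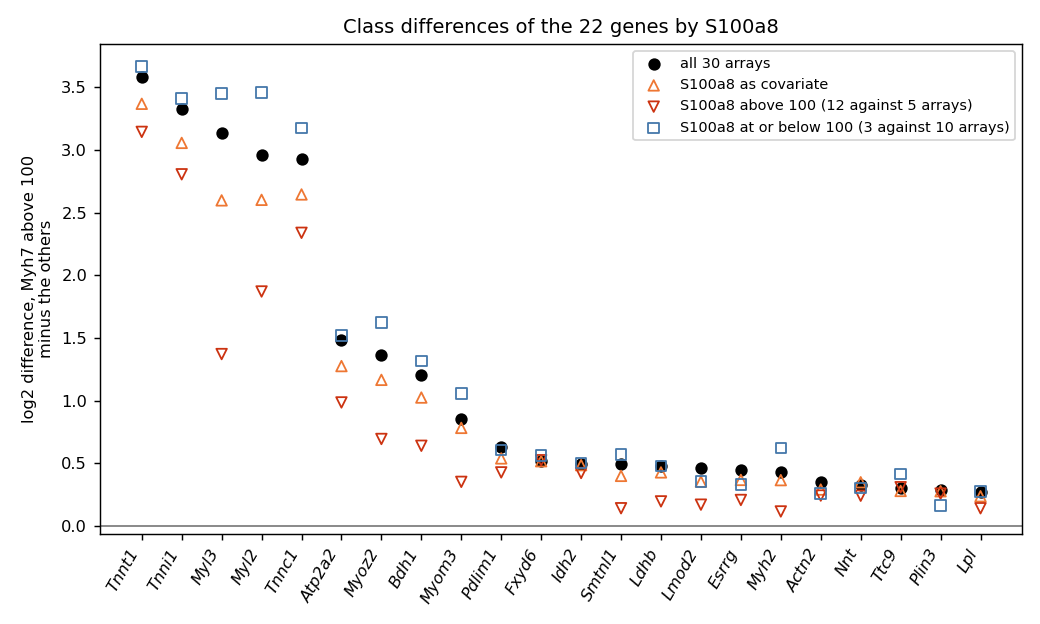
Log2 difference between the Myh7 classes for the 22 genes that passed, from all 30 arrays, with log2 S100a8 as a covariate, and among arrays with S100a8 above or not above 100. All points lie above 0; the values within arrays of S100a8 above 100 are the lowest for Tnnt1 (3.15), Myl3 (1.37) and Myh2 (0.11).

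Markers of other neighbouring tissues gave no gene that passed. Over all entries 0.134% passed, so lists this short would hold few or none at that share. The absence is not read further. In the tendon and fascia list, 12 of 13 genes were measured and the median difference was 0.09. Comp, cartilage oligomeric matrix protein, stood highest by p, with medians of 115.4 and 59.1 and a log2 difference of 0.88 ± 0.20 (limma adjusted p = 0.0927), which became 0.36 with the S100a8 covariate and -0.04 without the arrays with S100a8 above 100. Chad, chondroadherin, differed by 0.96 ± 0.26 (limma adjusted p = 0.229). The medians were 0.07 for 11 bone and cartilage genes, 0.22 for 11 macrophage genes, all 11 of them positive, and 0.09 for 11 fibroblast and matrix genes. They were 0.08 for 8 smooth muscle and pericyte genes, -0.08 for 10 adipocyte genes, 0.04 for 10 Schwann cell and nerve genes, -0.02 for 7 muscle spindle and satellite cell genes, and -0.00 for 6 embryonic and neonatal contractile genes. The part that tendon, bone or blood cells had in the differences was not tested. The arrays fell into 9 with a higher and 21 with a lower signal at the 5' end of control RNAs relative to the 3' end, and the 9 were spread over the classes as 5 and 4 (two-sided Fisher's exact test, p = 1). This split, called the 5' signal set below, was drawn at the widest gap of these values. The labels do not give it, and whether it is a batch was not tested.

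The slow fibre differences were positive in each group of mice, although fewer entries passed in the groups fitted alone, 5 in LF day 0, 4 in LF day 56 and 0 in HF day 56 mice (limma, with 1299 at an unadjusted p below 0.05 in HF day 56). Tnnt1 differed by 3.60, 3.97 and 3.20 on the log2 scale in LF day 0, LF day 56 and HF day 56 mice, and Tnni1 by 3.35, 3.57 and 3.08. Tnnc1 differed by 3.12, 3.23 and 2.45, Myl2 by 2.93, 3.10 and 2.86, and Atp2a2 by 1.36, 1.69 and 1.41. Genes of smaller difference varied more in proportion, with Esrrg at 0.18, 0.54 and 0.60, Smtnl1 at 0.27, 0.60 and 0.60, and Bdh1 at 1.03, 0.93 and 1.64. Whether these values differed between the day 56 diets was tested by an interaction of class and diet, in which limma called no entry (709 had an unadjusted p below 0.05, 351 with a positive and 358 with a negative value). The smallest p belonged to Dennd2d, with an interaction of 0.47 ± 0.10 (limma adjusted p = 0.964) at a mean intensity of 4.54. Rbm17, an RNA splicing factor, followed at -0.97 ± 0.25, then Lce1a2 at 0.47, Golga2, a Golgi matrix protein, at -0.48 and Strbp at -0.35, and none of these passed.

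Transcripts of slow fibres also varied together with Myh7 inside each class. The 6 genes set against Myh7 are slow fibre markers that were among those most strongly associated with it on these same arrays, and the relations were added after the data had been seen, so the correlations over 15 arrays a class are descriptions with no test. Below the threshold, log2 Tnni1 had Pearson's r = 0.924 and Spearman's rho = 0.839 with log2 Myh7, and r = 0.847 without the 2 arrays farthest from the median of Myh7. For Tnnc1 r was 0.926 and rho 0.818, with r = 0.864 without those arrays, and for Tnnt1 r was 0.867 and rho 0.796, with r = 0.796. For the light chains and the pump, r and rho were 0.847 and 0.832 for Myl2, 0.740 and 0.832 for Myl3, and 0.857 and 0.814 for Atp2a2. Without the 2 arrays r was 0.779, 0.680 and 0.731 for these genes.

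Above the threshold Tnnc1 had r = 0.951 and rho = 0.896, and Tnnt1 r = 0.919 and rho = 0.914. Without the 2 farthest arrays r was 0.902 and 0.869. Tnni1 had r = 0.773 and rho = 0.725, with r = 0.601 without those arrays, and Atp2a2 had r = 0.718 and rho = 0.675, with r = 0.461. The light chains had lower values, a difference that was not tested. For Myl2 r was 0.592 and rho 0.589, and r was 0.341 without those arrays. For Myl3, whose SD above the threshold was 0.29 on the log2 scale, r was 0.469 and rho 0.425, with r = 0.173 without those arrays.

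**Figure D5:**
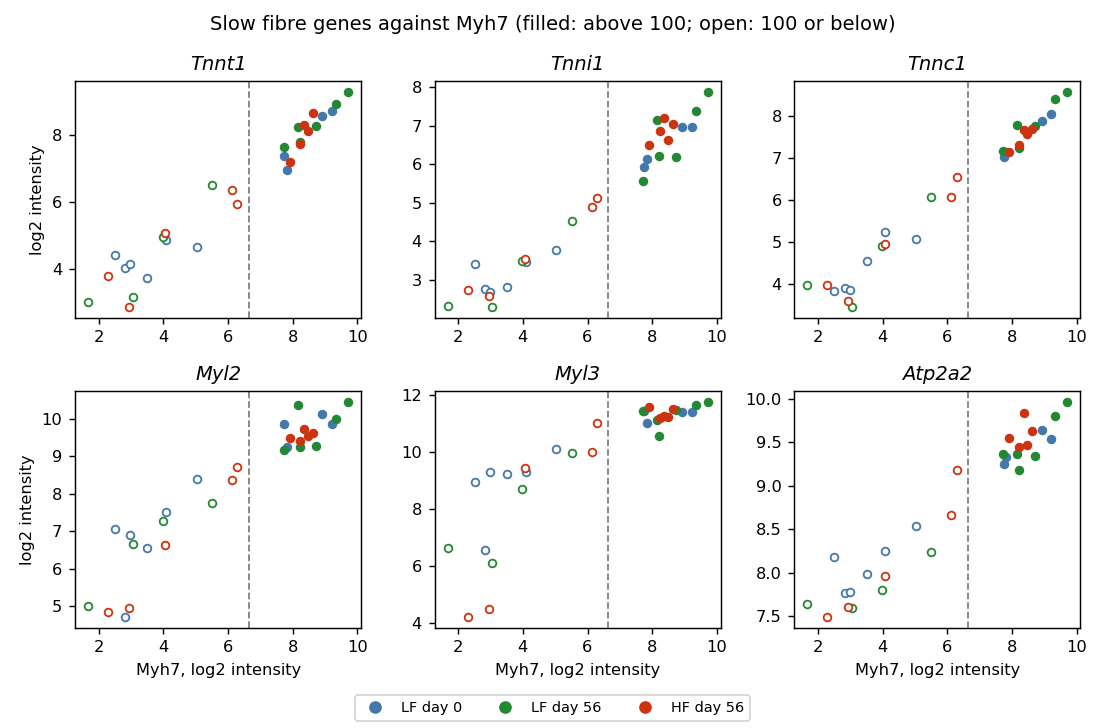
Log2 intensity of 6 slow fibre genes against log2 Myh7 for the 30 arrays, coloured by group, filled above and open at or below the threshold (dashed line at an intensity of 100). Inside each class r lies between 0.773 and 0.951 for Tnnt1, Tnni1 and Tnnc1, and for Myl3 above the threshold it is 0.469.

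The design's own comparisons were also made with the class held apart. For HF against LF at day 56, 11 entries passed with the class as a block (0.0668% of entries, 7 higher and 4 lower in HF) and 4 without it. The largest was BC048679, at 1.03 ± 0.15 on the log2 scale (limma adjusted p = 0.0015). The enzymes of unsaturated fatty acid oxidation Ech1 at 0.43, Decr1 at 0.39 (both limma adjusted p = 0.0015) and Eci2 at 0.21 (limma adjusted p = 0.00987) were higher in HF mice. These 4 were the ones that passed without the class. Plin5, the lipid droplet protein, was higher by 0.59 ± 0.10 with the class (limma adjusted p = 0.00987) and by 0.56 without it (limma adjusted p = 0.112). Cd36, the fatty acid transporter, was higher by 0.32 with the class (limma adjusted p = 0.0228) and 0.31 without (limma adjusted p = 0.102). Chrna2 passed at 0.52 (limma adjusted p = 0.0307) with a mean intensity of 3.36, near the lowest values. Mpp3 at -0.51, Mlf1 at -0.31 (both limma adjusted p = 0.00987), Nrep at -0.32 (limma adjusted p = 0.0193) and, outside the naming rule, Lmod3 at -0.23 (limma adjusted p = 0.0394) were lower. The count was 7 without LF day 56 replicate 5 or 9 or HF day 56 replicate 2 or 6, and 21 without HF day 56 replicate 3. When only the arrays above or only those below the threshold were fitted, no entry passed, and Plin5 differed by 0.59 and 0.61 in these classes.

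For LF day 56 against LF day 0, 151 entries passed with the class (0.917% of entries, 43 higher and 108 lower at day 56) and 140 without it. Those of smallest p were Amy1, an amylase, at 0.52, Dkk3, a secreted dickkopf protein, at 1.48, Mfsd4a at 0.75 and Pla2g7, a plasma phospholipase, at 0.64, with limma adjusted p from 2.9e-05 to 0.000137. Aldh1a1, a retinaldehyde dehydrogenase, stood at 0.39, and the lower ones were Nrep at -0.44, Prnd at -0.97, Tceal8 at -0.64, Rftn1 at -0.59 and Col5a2, a fibrillar collagen chain, at -0.79. Neither comparison called any of the 22 genes that went with Myh7. Tnnt1 differed by 0.31 between LF day 56 and LF day 0 mice with the class and by 1.03 without it, Tnni1 by 0.15 and 0.81, and Tnnc1 by 0.30 and 0.88, and none of these passed. Between HF and LF at day 56, Tnnt1 differed by -0.01 with the class and -0.37 without it. The closest to passing were Plin3, at -0.28 between LF day 56 and LF day 0 mice (limma adjusted p = 0.0659), and Nnt, at 0.27 (limma adjusted p = 0.0996).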

How the data were processed

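RNA of 30 mouse quadriceps was measured on Affymetrix arrays, 1 mouse an array. The authors deposited 1 linear intensity per gene and array, made with GCRMA per the submitters' processing notes (version not stated), with array medians from 8.9 to 9.4. Of 16539 entries, 64 control probe sets and Myh7 were left out and 16474 were tested. A symbol was given for 15780, 695 had none, and 16229 gene numbers matched RefSeq. An intensity of 20 was exceeded on at least 5 arrays by 6844 entries and not by 9631, so many differences near background cannot be seen, and the number of arrays limits the precision.

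Log2 intensities (pseudocount 0) were fitted with limma 3.58.1 in R 4.3.3 (lmFit, eBayes without trend, not robust). The class fit had group as a block, and the group fits had the class as a block. P-values were two-sided, adjusted by Benjamini-Hochberg over all entries, with a threshold of 0.05. Fisher tests were run in R, and the permutation tests of Myh7 by group used scipy 1.17.1. Correlations used numpy 2.4.6, with ranks from scipy. The fitting was tested on simulated data. The members, the 23 gene lists and the tests were chosen with earlier results of these data known. Named were the 15 largest rises and falls among genes that passed with a mean intensity above 20, every measured member of the 5 fibre lists, up to 4 members of smallest p of each other list and, in group comparisons, up to 10 genes of smallest p (5 where fewer than 5 passed).

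Alternatives changed the Myh7 threshold or scale, blocks, 5' signal set, S100a8, normalization, pseudocount, low-intensity filter, priors and array weights, and left out each array. Replicate numbers recur in the groups, but of 30 same-numbered pairs only 9 had deviations that correlated above 0.1 (from -0.39 to 0.40), so arrays were not paired. That each mouse was a separate animal is from the labels.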

Additional observations from a re-analysis of the deposited data

Results flagged for a closer look

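Among the 22 genes and Myh7 in each group of 10 mice (23 genes and 69 sets of 10 arrays), 2 values stood far from the rest of their group. Chance alone marks about 1 in 20 sets of 10 values drawn from 1 normal distribution. Each set here mixes arrays of both Myh7 classes, and these genes are not independent of each other. That rate therefore need not hold here, and the number of such values is not read further. Both belonged to LF day 0 replicate 1. Its log2 Myl3 was 6.56, against 8.95 for the nearest LF day 0 array, a gap of 0.49 of the group's whole range. Its log2 Myoz2 was 7.23, against 8.48 for the nearest array, a gap of 0.48 of the range. The array had a Myh7 intensity of 7.1 and an S100a8 intensity of 6.6. Without it 22 genes went with the Myh7 class, 20 of them among the original 22, and Myl3 and Myoz2 passed.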

How the results depend on the processing

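The 22 genes higher with Myh7 kept their sign under every alternative run, and 65 of the other 96 named genes changed sign under at least 1. The 22 were chosen by passing on these same arrays, and many of the 96 had differences close to none. This contrast therefore follows from the choice of genes and is not read further. The count was 31 with log2 Myh7 as a continuous term, all 22 shared, and 16 with no group block. It was from 19 to 29 under other scalings, the low-intensity filter, a threshold of 50 and the 5' signal set as a block. A threshold of 50 gave 24, of which 18 were among the 22. Cuts at 200 or at the widest gap of log2 Myh7 parted the arrays just as 100 did, so they test nothing further. The count was 13 at an adjusted p below 0.01, 5 with S100a8 as a covariate and 6 with S100a8 and the 5' signal set (chosen after seeing the data). It was 0 without arrays with S100a8 above 100 and 2 in those arrays alone (added likewise). It was 5 in the 21 arrays of lower and 0 in the 9 of higher 5' signal (1003 at an unadjusted p below 0.05 in limma), and 5 in LF day 0, 4 in LF day 56 and 0 in HF day 56 mice alone (1299 at an unadjusted p below 0.05 in limma). These last fits held 9 to 21 arrays. Leaving out each array gave 14 (without LF day 56 replicate 2) to 29 (without LF day 0 replicate 2 or 8). Fxyd6, Plin3 and Ttc9 passed in 9, 11 and 11 of 30 such fits, Lmod2 in 23 and Idh2 in 24.

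HF against LF at day 56 gave 11 genes with the class, 4 without it, 18 with the 5' signal set and 19 with the filter. It gave 7 with S100a8 (added), 0 in either class alone and 7 to 21 without each array. LF day 56 against LF day 0 gave 151, 283 with the 5' signal set and 76 with S100a8 (added). It gave 0 above and 7 below the threshold alone, and 103 to 172 without each array. The interaction gave 0 throughout in limma, with 489 to 974 entries at an unadjusted p below 0.05. With the replicate number as a block the 4 counts were 8, 7, 112 and 0, though the numbers do not pair the arrays. The cause of these shifts was not tested. Without each array the Myh7 difference ranged from 0.80 to 1.69 (LF day 56 against LF day 0), 0.54 to 1.32 (HF day 56 against LF day 0) and -0.82 to 0.17 (HF against LF at day 56).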

Other observations

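With log2 Myh7 as a continuous term, 9 entries passed that the class did not call, and 7 of them have a symbol. They were chosen after their values were seen. Casq2, the slow and cardiac calsequestrin, had a slope of 0.14 ± 0.02 log2 units per log2 unit of Myh7 (limma adjusted p = 0.00104). Comp had a slope of 0.18 ± 0.04 (limma adjusted p = 0.0323), Atp1b1, a sodium pump subunit, of 0.06 (limma adjusted p = 0.01), and H19, an imprinted long noncoding RNA, of 0.07 (limma adjusted p = 0.0265). Btnl10 had a slope of 0.05 at a mean intensity of 3.22. The only entries with a negative slope that passed were Rab40b at -0.05 (limma adjusted p = 0.0209) and Ccdc69 at -0.06 (limma adjusted p = 0.013), whose class differences of -0.24 and -0.25 did not pass. On the same scale the slope was 0.77 for Tnnt1, 0.70 for Tnni1 and 0.63 for Tnnc1.

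Only 3 other entries were lower with Myh7 and passed in some alternative to the class fit: Mrps28, a mitochondrial ribosomal protein, with 16 added before the log2 (-0.11), Ormdl3 without LF day 56 replicate 6 (-0.29) and Triobp without HF day 56 replicate 10 (-0.38).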
